A study of Mus musculus with 11 samples.

Results

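The lipolysis genes described here are 7 genes of fat breakdown that were chosen by name: the 3 lipases *Lipe*, *Pnpla2* and *Mgll*, the lipase regulators *Abhd5* and *G0s2*, and the beta-adrenergic receptors *Adrb1* and *Adrb3*. All 7 were among the 12787 genes measured in the gonadal white adipose tissue (WAT) of 11 male C57BL/6J mice. Every mouse was fed a 60% high fat diet (HFD) for 20 weeks. The control group (HFD, n = 5) received vehicle, and the other group (HFD + IMC, n = 6) received 0.06% w/w iodomethylcholine (IMC), a small molecule inhibitor of the gut bacterial enzyme CutC, which makes trimethylamine from choline. A further vehicle library failed the submitters' quality control and was not analysed here. The age of the mice at collection and the hour of the day at which the tissue was taken are not given in the sources used here. The paper reports that IMC-treated mice on this diet gained less weight, with less fat mass and lower insulin when fed. The weights of the sequenced mice are not given by mouse, and the part of body fat or insulin in the differences was not tested. The comparison asks how the transcripts of the lipolysis machinery in fat differed between mice with and without this inhibitor.

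Adipocytes store fat as triglyceride in a lipid droplet and release fatty acids from it in 3 successive steps. *Pnpla2* encodes adipose triglyceride lipase, which removes the first fatty acid, *Lipe* encodes hormone-sensitive lipase, which acts mainly on the resulting diglyceride, and *Mgll* encodes monoglyceride lipase, which frees glycerol. The protein of *Abhd5* (CGI-58) is the co-activator of adipose triglyceride lipase and that of *G0s2* is its inhibitor. Catecholamines act on the beta-adrenergic receptors, raise cyclic AMP and activate protein kinase A, which phosphorylates hormone-sensitive lipase and the droplet protein perilipin. In mice, *Adrb3* is the receptor most typical of fat cells, while *Adrb1* is used in many tissues.

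On GRCm38, the build also called mm10, *Lipe* lies on chr7:25379527-25398486 (minus strand), *Pnpla2* on chr7:141455188-141460743 (plus), *Mgll* on chr6:88724412-88828360 (plus) and *Abhd5* on chr9:122351616-122381524 (plus). *G0s2* lies on chr1:193272160-193273188 (minus), *Adrb1* on chr19:56722117-56725150 (plus) and *Adrb3* on chr8:27225776-27230845 (minus). The RefSeq promoter table of GRCm38.p6 matched 6 of the 7 genes, with 8 start sites between them. The bases before the start are printed for the 3 genes in which a searched motif was found, and for *Pnpla2*, the lipase of the first step, in which none was found. Each line gives 250 bases, 5′ to 3′ on the gene's own strand and ending just before the start site, and the capitals mark the motif. The windows are chr7:25395988-25396237 for *Lipe*, chr6:88724162-88724411 for *Mgll*, chr9:122351366-122351615 for *Abhd5* and chr7:141454938-141455187 for *Pnpla2*.
Lipe: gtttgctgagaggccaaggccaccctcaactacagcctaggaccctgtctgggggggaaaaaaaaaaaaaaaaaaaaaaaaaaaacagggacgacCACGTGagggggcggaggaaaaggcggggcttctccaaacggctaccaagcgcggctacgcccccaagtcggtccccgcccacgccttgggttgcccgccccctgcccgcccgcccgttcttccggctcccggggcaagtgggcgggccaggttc
Mgll: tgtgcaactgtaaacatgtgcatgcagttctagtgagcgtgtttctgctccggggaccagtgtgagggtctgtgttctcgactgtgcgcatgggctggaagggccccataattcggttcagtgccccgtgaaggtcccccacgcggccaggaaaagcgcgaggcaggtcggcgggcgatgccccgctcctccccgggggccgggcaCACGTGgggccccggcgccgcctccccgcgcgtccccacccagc
Abhd5: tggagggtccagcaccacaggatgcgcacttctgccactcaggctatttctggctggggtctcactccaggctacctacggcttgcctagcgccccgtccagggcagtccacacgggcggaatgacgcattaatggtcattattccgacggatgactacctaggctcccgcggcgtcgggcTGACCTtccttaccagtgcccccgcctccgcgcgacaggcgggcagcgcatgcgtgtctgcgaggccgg
Pnpla2: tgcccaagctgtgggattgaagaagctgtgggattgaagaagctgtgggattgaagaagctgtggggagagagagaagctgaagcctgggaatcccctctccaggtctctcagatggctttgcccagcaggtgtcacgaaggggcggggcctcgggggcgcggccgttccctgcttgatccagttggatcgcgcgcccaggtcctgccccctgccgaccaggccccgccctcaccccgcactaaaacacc

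The search covered 300 bases around each start (250 before and 50 after) on both strands for 4 motifs: CACGTG, the E-box that the clock proteins CLOCK and BMAL1 can bind, TGACGTCA, the cyclic AMP response element, AGGTCA, a core bound by nuclear receptors, and TATAAA, the TATA box. None of these motifs overlaps another in the sequences printed. The E-box begins 155 bases before the *Lipe* start shown and 44 bases before the *Mgll* start shown. At the other start site of each of these genes, none of the 4 motifs was found. CACGTG occurs in 7.15% of all 32851 promoters of this length in the table. *Abhd5* holds AGGTCA on the reverse strand, 69 bases before its start, and 16.3% of all promoters hold this motif. No window of the 6 genes held TGACGTCA or TATAAA, which 1.79% and 13.6% of all promoters hold. The G and C content of the 8 windows was 60.0% to 72.3%, with a median of 52.7% over all promoters.

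All values below are log2 CPM, read counts scaled to the size of the library, as deposited, unless a sentence names another, and a difference is always HFD + IMC minus HFD. Between 22320022 and 25155366 reads per mouse fell on the listed genes, with 22320022 to 23635249 in HFD mice and 22619505 to 25155366 in IMC-treated mice. The lipases had at least 11675 reads in every mouse, *Abhd5* at least 3063, *G0s2* at least 1403 and *Adrb3* at least 786, while *Adrb1* had 16 to 63. The 7 adipocyte markers (*Adipoq*, *Adig*, *Acvr1c*, *Plin4*, *Fabp4*, *Pparg* and *Tusc5*) were all detected in every mouse. None of 5 epididymis markers and none of 7 T and B cell markers was among the listed genes. The labels name no batch, cage or litter. The paper states that mice were housed in groups, and which of these mice shared a cage is not given. The p-values treat the mice as independent, and the part of a shared cage in the differences was not tested. Mice are numbered within their group in the order of deposition.

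IMC-treated mice had more transcript of all 3 lipases, both lipase regulators and *Adrb3*, and *Adrb1* was the only one of the 7 that did not pass the test (limma on all 12787 genes, Benjamini-Hochberg adjusted p under 0.05). The 6 genes that passed were all higher with IMC, and 5 of them did not overlap between the groups. Over all genes, 19.99% were called higher and 20.96% lower, and 12.5% were higher with no overlap. The median difference of the 7 genes was 0.64, while the median over all genes was -0.03. All transcripts were measured in whole tissue, where fewer cells of a type and less RNA per cell cannot be told apart.

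*Lipe* was at 9.04, 9.62, 9.19, 9.29 and 9.75 in HFD mice 1 to 5. In the 6 IMC-treated mice it ranged from 10.13 to 10.40 with a median of 10.28, so that the lowest of them lay above the highest HFD mouse. The mean was 9.38 ± 0.30 (SD, n = 5) with HFD and 10.28 ± 0.11 (SD, n = 6) with IMC, a difference of 0.90 (SE 0.12, limma adjusted p = 0.000107) or 1.87-fold. The HFD mice were more widely spread than the IMC-treated mice for each of the 3 lipases.

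*Pnpla2* was at 9.40, 9.91, 9.50, 9.58 and 9.78 in the HFD mice, and at 10.20 to 10.36 with a median of 10.25 in the IMC-treated mice. The groups were apart, with a mean of 9.63 ± 0.21 (SD, n = 5) against 10.27 ± 0.07 (SD, n = 6). The difference was 0.64 (SE 0.09, limma adjusted p = 0.000147), which is 1.56-fold. *Mgll* was at 9.64, 10.13, 9.82, 9.84 and 9.96 in the HFD mice, and at 10.43 to 10.57 with a median of 10.53 in the IMC-treated mice. These groups did not overlap either, and the means of 9.88 ± 0.18 (SD, n = 5) and 10.51 ± 0.06 (SD, n = 6) differed by 0.63 (SE 0.08, limma adjusted p = 9.47e-05), or 1.55-fold. HFD mouse 2 had the highest *Pnpla2* and *Mgll* of its group, while HFD mouse 5 had the highest *Lipe*.

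The co-activator and the inhibitor of adipose triglyceride lipase were both higher with IMC, and the 95% intervals of their differences, 0.23 to 0.47 for *Abhd5* and 0.70 to 1.31 for *G0s2*, did not overlap. *Abhd5* was at 7.17, 7.24, 7.12, 7.01 and 7.25 in the HFD mice and at 7.40 to 7.60 with a median of 7.52 in the IMC-treated mice. The means were 7.16 ± 0.10 (SD, n = 5) and 7.51 ± 0.09 (SD, n = 6), apart by 0.35 (SE 0.06, limma adjusted p = 0.000432) or 1.27-fold, the smallest difference of the 7 genes. *G0s2* was at 5.98, 6.25, 6.24, 6.45 and 6.85 in the HFD mice and at 7.03 to 7.70 with a median of 7.34 in the IMC-treated mice. Its means of 6.35 ± 0.32 (SD, n = 5) and 7.36 ± 0.23 (SD, n = 6) were 1.01 apart (SE 0.14, limma adjusted p = 0.000172), which is 2.01-fold and the largest difference of the 7. Neither gene overlapped between the groups. In the GENCODE vM21 annotation *G0s2* overlaps the laminin gene *Lamb3* on the opposite strand, and *Lamb3* was at 3.19 ± 0.30 (SD, n = 5) with HFD and 4.66 ± 0.19 (SD, n = 6) with IMC. The libraries were directional but the strand setting of the count is not given in the sources used here, so reads of the overlap could have gone to either gene. *Lipe*, *Mgll*, *Abhd5* and *Adrb3* overlap antisense or unconfirmed transcripts that are not among the listed genes, and *Pnpla2* and *Adrb1* overlap none.

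**Figure D1:**
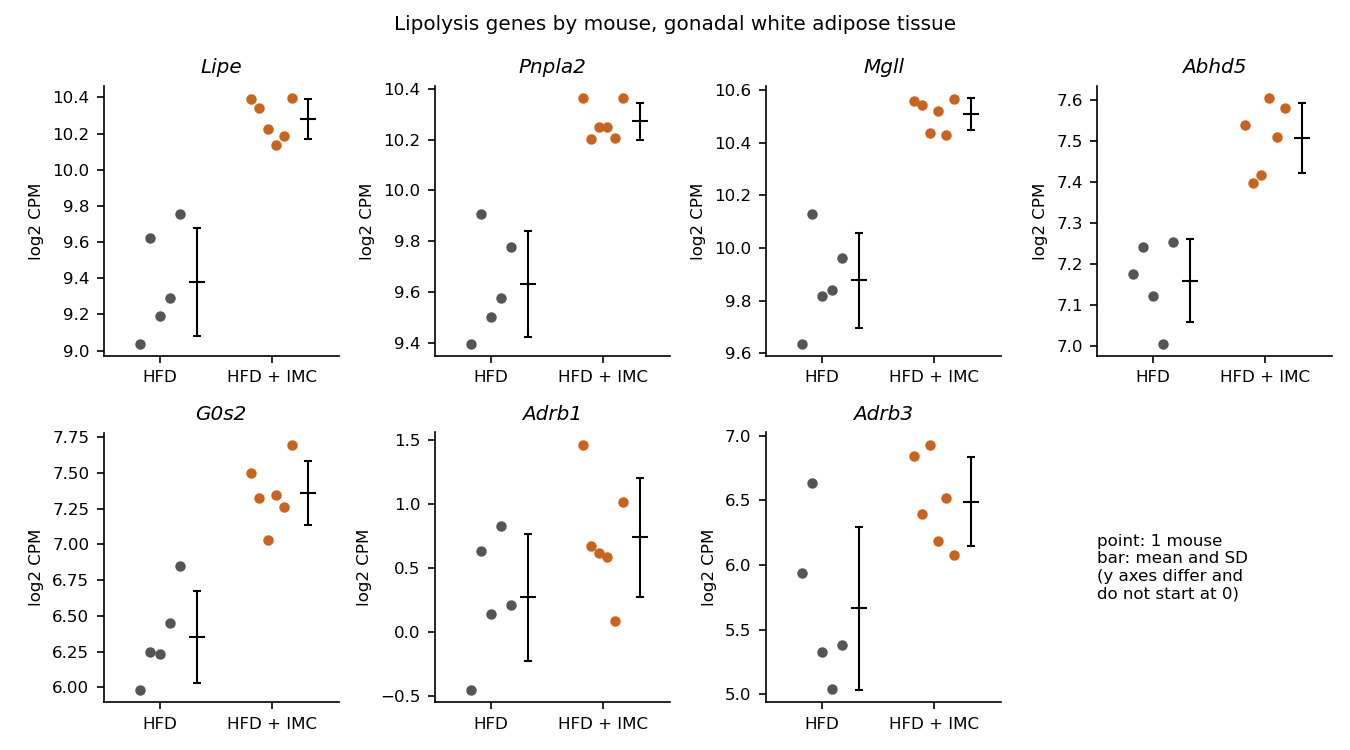
Log2 CPM of the 7 lipolysis genes (y axis, a separate scale for each gene) in HFD and HFD + IMC mice (x axis), where a point is 1 mouse and the bar beside each group is its mean and SD. The groups are apart for *Lipe*, *Pnpla2*, *Mgll*, *Abhd5* and *G0s2* and overlap for *Adrb1* and *Adrb3*.

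The receptors had the largest SDs of the 7 genes in both groups. *Adrb3* was at 5.94, 6.64, 5.32, 5.04 and 5.38 in the HFD mice and at 6.08 to 6.93 with a median of 6.46 in the IMC-treated mice. HFD mouse 2 lay above 4 of the 6 IMC-treated mice, and the other 4 HFD mice lay below all of them. The means of 5.66 ± 0.63 (SD, n = 5) and 6.49 ± 0.34 (SD, n = 6) differed by 0.83 (SE 0.25, limma adjusted p = 0.0176), or 1.77-fold. When each mouse was left out in turn, the difference lay between 0.67 and 1.07 and the limma adjusted p between 0.0011 and 0.0492.

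*Adrb1* was at -0.45, 0.63, 0.14, 0.83 and 0.21 in the HFD mice and at 0.09 to 1.46 with a median of 0.64 in the IMC-treated mice, so the groups overlapped. Its means were 0.27 ± 0.50 (SD, n = 5) and 0.74 ± 0.46 (SD, n = 6), and the difference of 0.47 had a 95% interval of -0.11 to 1.04 (limma adjusted p = 0.180). With a median of 36 reads per mouse, counting alone gives an SD of 0.27 in the HFD group and 0.23 in the IMC group on the log2 scale, counting error only. The differences found for the other 6 genes, 0.35 to 1.01, all lie inside this interval.

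**Figure D2:**
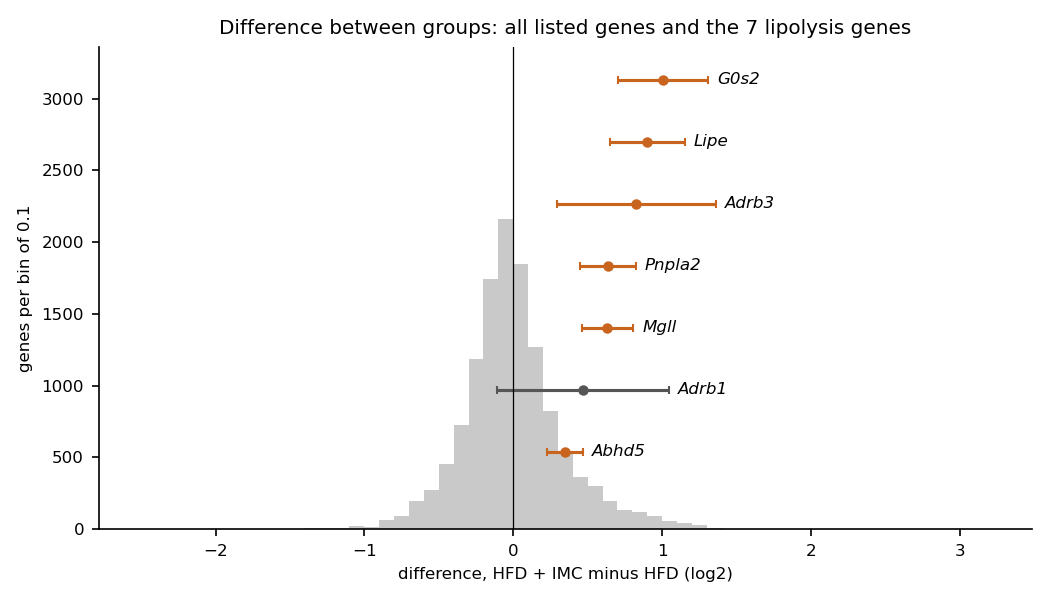
Differences between the groups (x axis, log2, HFD + IMC minus HFD) as a histogram of all 12787 genes (y axis, genes per bin of 0.1), with the 7 lipolysis genes above it as points with 95% intervals, placed at arbitrary heights. All 7 points lie to the right of 0, and the interval of *Adrb1* (grey) crosses it.

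By size of the difference, *G0s2* ranked 150, *Lipe* 244, *Adrb3* 329, *Pnpla2* 608, *Mgll* 620, *Adrb1* 1095 and *Abhd5* 1616 among the 12787 genes, counted from the most raised. The lipases were among the genes with the highest log2 CPM, a measure that is not corrected for gene length. Of all genes, 99.4% had a lower mean log2 CPM than *Mgll*, 99.3% than *Pnpla2* and 99.2% than *Lipe*. For *Abhd5* this share was 91.7%, for *G0s2* 87.0%, for *Adrb3* 74.8% and for *Adrb1* 2.47%.

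Levels of different genes were compared per kilobase of exon (log2 CPM per kb), with all annotated exons of a gene counted. The order can depend on this choice of length. The order was the same in both groups, with *Pnpla2* highest at 8.24 ± 0.21 with HFD (SD, n = 5) and 8.88 ± 0.07 with IMC (SD, n = 6). *Mgll* followed at 7.61 ± 0.18 and 8.24 ± 0.06 log2 CPM per kb, then *Lipe* at 6.92 ± 0.30 and 7.83 ± 0.11, and *G0s2* at 6.55 ± 0.32 and 7.56 ± 0.23. *Lipe* and *G0s2* were the only neighbours in this order whose mice overlapped, and they did so in both groups. *Abhd5* was at 5.50 ± 0.10 and 5.85 ± 0.09 log2 CPM per kb, *Adrb3* at 4.13 ± 0.63 and 4.96 ± 0.34, and *Adrb1* lowest at -1.29 ± 0.50 and -0.82 ± 0.46. Per kilobase, then, the inhibitor transcript *G0s2* was more abundant than the co-activator transcript *Abhd5* in every mouse.

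The adipocyte markers themselves were higher with IMC, all 7 of 7 passing the test. Their mean log2 CPM was 8.01, 8.49, 8.10, 8.21 and 8.63 in HFD mice 1 to 5 and 9.04 to 9.35 in the IMC-treated mice, a difference of 0.90 between the groups (exact permutation test, two-sided, p = 0.00216, which is the lowest p that 5 and 6 mice allow). Each lipolysis gene was therefore also expressed relative to this mean in the same mouse, as a log2 difference.

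*Lipe* kept a nearly fixed distance above the markers. It lay 1.03 to 1.14 above their mean in all 11 mice, a range of 0.12, while its own level ranged over 1.36 and the marker mean from 8.01 to 9.35. No other of the 12780 genes outside the marker list had a smaller range, and the median range over all genes was 1.50. The relative level was 1.09 ± 0.04 (SD) in both groups, and the difference was -0.000590 with a 95% interval of -0.25 to 0.25 (limma adjusted p = 0.996). The interval is wide beside the spread of the mice, since limma draws the variance of each gene towards that of other genes. The range of *Lipe* stayed the smallest, at 0.11 to 0.16, when any 1 of the 7 markers was dropped, and against *Adipoq* alone it was 0.55, with 32 genes below it.

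Of the 7 genes, *Abhd5* fell furthest behind the markers. Its relative level was -0.83, -1.25, -0.98, -1.20 and -1.38 in the HFD mice and -1.86 to -1.44 in the IMC-treated mice, with no overlap. The difference was -0.55 (SE 0.13, limma adjusted p = 0.000424). It was the only 1 of the 7 genes called lower relative to the markers and none was called higher, beside 94.05% of all genes called lower and 0.289% higher. The median was -0.26 over the 7 genes and -0.93 over all genes.

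*Pnpla2* and *Mgll* differed by -0.26 (SE 0.13) and -0.27 (SE 0.13) relative to the markers and missed the threshold (limma adjusted p = 0.0534 and 0.0537). The exact permutation test of the same values, added after the data were seen, gave p = 0.0152 for each. That p is not adjusted for the 7 genes tested in this way, so it is not comparable with the limma adjusted p. HFD mouse 5 stood apart here, with *Pnpla2* at 1.14 beside 1.37 to 1.42 in the other HFD mice, and *Mgll* at 1.33 beside 1.63 to 1.72. Without that mouse the differences were -0.31 and -0.33, both genes passed, and 4 of the 7 were called lower. The count of genes called lower was 2 without HFD mouse 1, IMC mouse 1 or IMC mouse 4.

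For *G0s2* the difference relative to the markers was 0.11 (95% interval -0.17 to 0.38, limma adjusted p = 0.439), and for *Adrb3* it was -0.07 (-0.51 to 0.37, limma adjusted p = 0.742). The relative level of *Adrb1* differed by -0.43 (-0.93 to 0.06, limma adjusted p = 0.0898). These 3 intervals cover 0, and those of the receptors also cover changes of the size seen for *Pnpla2* and *Mgll*.

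**Figure D3:**
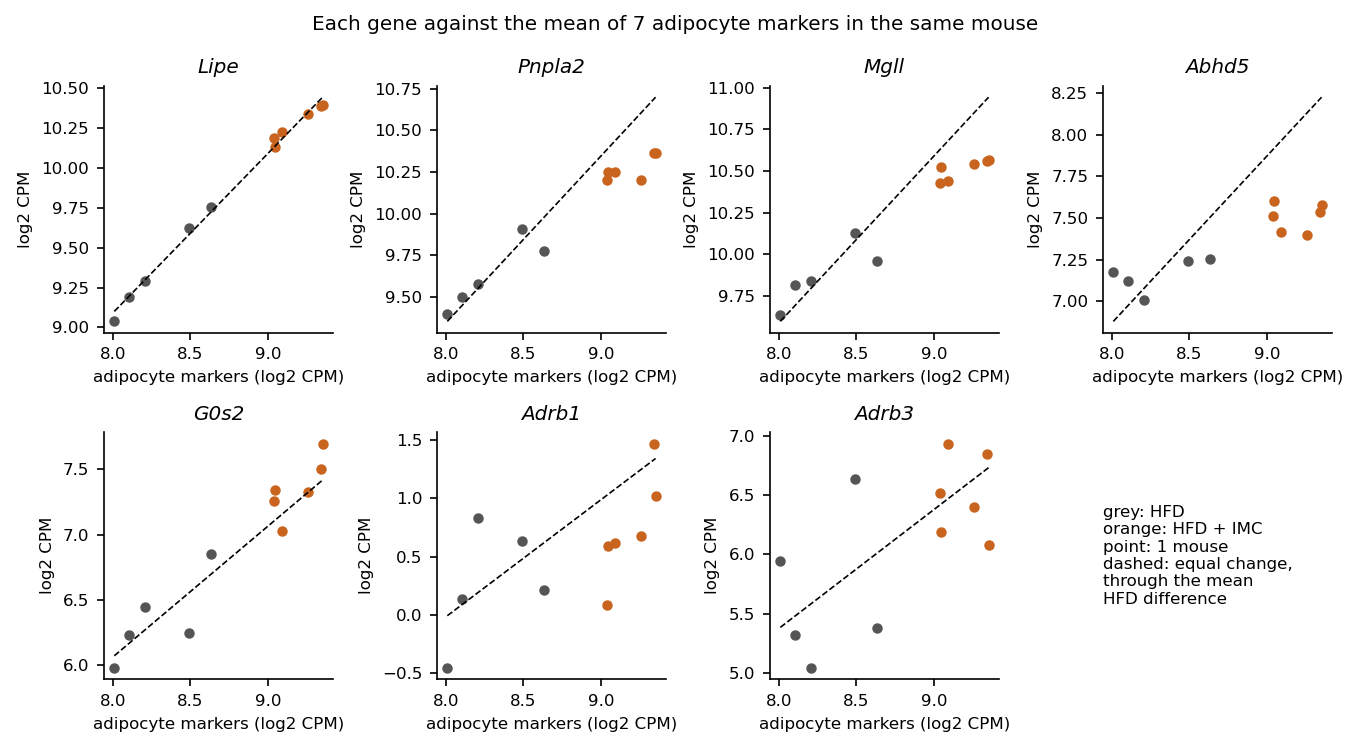
Log2 CPM of each lipolysis gene (y axis, separate scales) against the mean log2 CPM of the 7 adipocyte markers in the same mouse (x axis), 1 point per mouse, HFD in grey and HFD + IMC in orange, where the dashed line marks equal change through the mean HFD difference. *Lipe* follows the line in all 11 mice, and all IMC-treated mice lie below it for *Abhd5*, *Pnpla2* and *Mgll*.

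Markers of other cell types differed between the groups too, though not in every list. Of 10 macrophage markers 8 were lower with IMC and none was higher, and their summed level was 12.90 to 13.20 with HFD and 12.20 to 12.69 with IMC. All 5 mast cell markers were lower, with a summed level of 8.43 to 9.60 against 6.84 to 7.75, and 3 of 6 progenitor and fibroblast markers were lower, at 13.02 to 13.39 against 12.64 to 13.05. Of 5 endothelial markers 2 were higher (8.41 to 8.87 against 8.69 to 9.11), and of 4 listed mesothelial markers 1 was lower (7.62 to 8.10 against 6.53 to 7.79). Both listed skeletal muscle markers, *Acta1* and *Myh2* of a list of 6, were higher, at a summed level of 3.61 to 4.12 against 4.90 to 5.80. Of 3 listed brown adipocyte markers only *Cidea* was higher, and *Ucp1* was not among the listed genes. The summed level did not pass an exact permutation test for the mesothelial (p = 0.251) and brown adipocyte (p = 0.136) markers. For the other lists in this paragraph, the same test gave p from 0.00216 to 0.0390, without adjustment over the lists. The part of these cell types in the differences of the 7 lipolysis genes was not tested beyond the values relative to the adipocyte markers.

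Ratios between lipolysis genes within a mouse compare transcripts that a common shift would leave unchanged, and 5 such ratios were tested by two-sided exact permutation tests with Benjamini-Hochberg adjustment over the 5. Ratios are given as geometric means, in CPM and not per kilobase, so their sizes do not order genes of different length. Beside *Abhd5*, its co-activator transcript, *Pnpla2* was 5.56-fold with HFD and 6.79-fold with IMC. The log2 ratio moved from 2.47 ± 0.17 (SD, n = 5) to 2.76 ± 0.08 (SD, n = 6), a difference of 0.29 (exact p = 0.00433, adjusted p = 0.0216). Beside its inhibitor transcript *G0s2*, *Pnpla2* was 9.72-fold with HFD and 7.53-fold with IMC, a log2 difference of -0.37 (exact p = 0.0281, adjusted p = 0.0352). That ratio is the least secure of those called: without any 1 of HFD mice 1, 2 and 3 or IMC mice 1, 2, 4 and 6, the exact p rose to between 0.0524 and 0.0810, and over all mice left out the difference lay between -0.46 and -0.27.

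Among the lipases, *Lipe* drew level with *Pnpla2* in CPM, while per kilobase it stayed lower in both groups. The ratio of *Lipe* to *Pnpla2* was 0.839 with HFD and 1.01 with IMC, a log2 difference of 0.26 (exact p = 0.00866, adjusted p = 0.0216). *Mgll* was 1.41-fold *Lipe* with HFD and 1.17-fold with IMC, a log2 difference of -0.27 (exact p = 0.0173, adjusted p = 0.0289). These too are ratios of CPM, not per kilobase. In both ratios HFD mouse 5 lay among the IMC-treated mice, with a log2 ratio of -0.02 for *Lipe* to *Pnpla2* and 0.21 for *Mgll* to *Lipe*. The ratio of *Adrb3* to *Adrb1* was 42.0 with HFD and 53.8 with IMC, with a log2 difference of 0.36 inside the spread of the mice (exact p = 0.416).

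**Figure D4:**
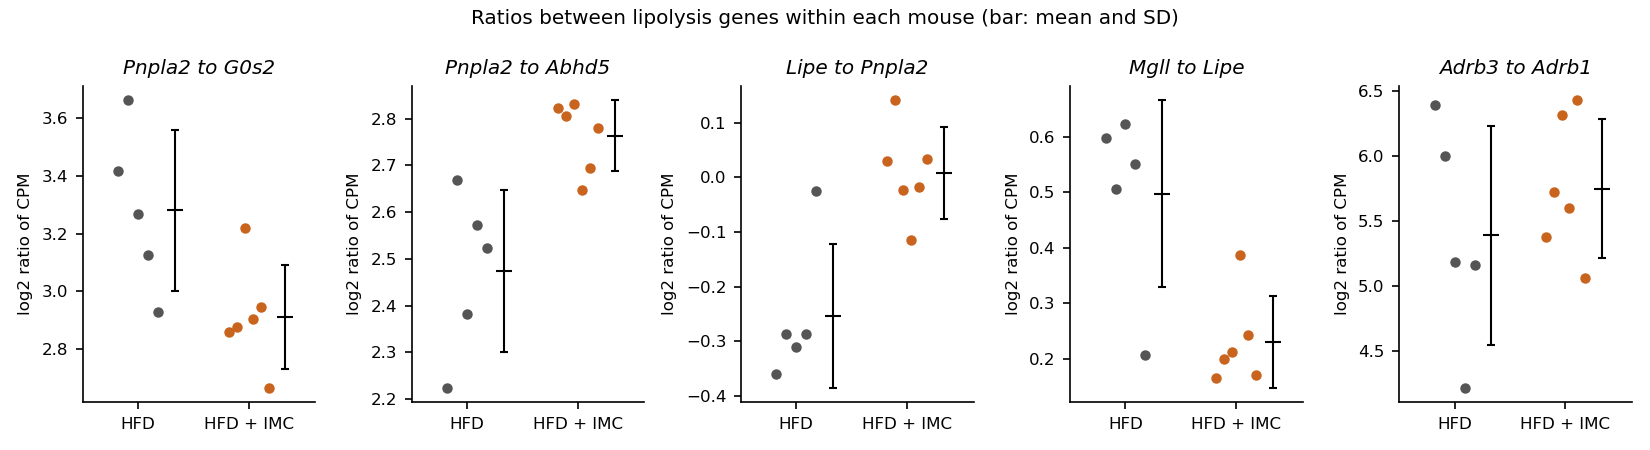
Log2 ratio of CPM between pairs of lipolysis genes within each mouse (y axis, separate scales) in HFD and HFD + IMC mice (x axis), where a point is 1 mouse and the bar is the mean and SD. The groups overlap in all 5 ratios, and the single HFD mouse near the IMC-treated mice in the *Lipe* to *Pnpla2* and *Mgll* to *Lipe* panels is HFD mouse 5.

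Across the 11 mice, *Pnpla2* and *Mgll* were the most alike of the 7 genes, with a root mean square difference of 0.05 log2 between their levels after each gene was centred on its mean. *Lipe* differed from *Pnpla2* by 0.16, from *Mgll* by 0.18 and from *G0s2* by 0.18. The pair least alike was *Adrb1* and *Adrb3*, at 0.65, where *Adrb1* had only 16 to 63 reads per mouse. The likeness includes the difference between the groups as well as the variation within them.

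Among all other genes, those most like *Lipe* by this measure were *Sod3* (0.066), *Mcam* (0.068) and the thyrotropin receptor *Tshr* (0.069), beside a median of 0.52 over all genes. *Pnpla2* was closest to *Ehd2* (0.053), *Sspn* (0.054) and *Prnp* (0.058), and *Mgll* to *Acadm*, a mitochondrial fatty acid oxidation enzyme (0.046), *Prnp* (0.048) and the mitofusin *Mfn2* (0.049). *Abhd5* was closest to *Alg2* (0.037), *Slc38a10* (0.050) and *Ubqln1* (0.056). The genes nearest to *G0s2* were the droplet protein *Plin5* (0.089), the glycerol phosphate acyltransferase *Agpat9* (0.098) and *Fam83a* (0.120). No gene came as close to the receptors: *Adrb3* was 0.287 from *Il2ra*, 0.323 from *Apcdd1* and 0.340 from *Ugt3a2*, and *Adrb1* was 0.242 from *Nog*, 0.254 from *Cubn* and 0.279 from *A430035B10Rik*. The distances of *Adrb1* are about the size of its counting error alone, an SD of 0.27 log2 with HFD and 0.23 with IMC.

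The other genes of the lipolysis pathway were taken from a list of 62, of which 59 were listed. With IMC 35 of them were higher, 11 were lower and 13 did not pass the test, beside 19.99% of all genes higher and 20.96% lower, and their median difference was 0.35. Relative to the adipocyte markers 36 of the 59 were lower, 22 did not pass, and only *Adora1* was called higher, at 0.31 (limma adjusted p = 0.0240), beside 94.05% of all genes lower and 0.289% higher. The median of the 59 in this comparison was -0.55, and that of all genes -0.93.

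Of 4 stimulatory receptors 3 were higher and none was lower. The corticotropin receptor *Mc2r* was higher by 1.03 (SE 0.10) and *Tshr* by 0.95 (SE 0.10), each with no overlap between the groups. The incretin receptor *Gipr* was at 0.88 ± 0.22 (SD, n = 5) and 1.28 ± 0.15 (SD, n = 6), higher by 0.39 (SE 0.14, limma adjusted p = 0.0342). It no longer passed when any 1 of HFD mice 1 and 3 or IMC mice 1, 4, 5 and 6 was left out, with a limma adjusted p of up to 0.0909. Receptors that restrain lipolysis were higher in 7 of 9 cases and lower in none. They included the natriuretic peptide clearance receptor *Npr3* (0.87, SE 0.09), the lactate receptor *Hcar1* (0.93, SE 0.11) and the succinate receptor *Sucnr1* (0.83, SE 0.10).

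Genes downstream of the receptors moved in both directions. Of 10 G protein and adenylyl cyclase genes 3 were higher, namely *Adcy6* (0.83, SE 0.07), *Adcy5* (0.87, SE 0.09) and the inhibitory G protein *Gnai1* (0.73, SE 0.09), and 4 were lower. Of 9 genes of protein kinase A and cyclic AMP breakdown 6 were higher and 2 lower. The regulatory subunit *Prkar2b* was higher by 0.75 (SE 0.08), the phosphodiesterase *Pde3b*, which insulin uses to restrain lipolysis, by 0.65 (SE 0.08) and *Abhd15*, whose protein partners it, by 0.89 (SE 0.09). Of 4 genes of receptor desensitisation 2 were lower: *Arrb2* fell by 0.51 (SE 0.08) and the receptor kinase *Adrbk1* fell by 0.34 (SE 0.06), while *Grk5* was higher by 0.28 (SE 0.07).

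At the lipid droplet 5 of 7 genes were higher and 1 lower. Perilipin 1 (*Plin1*), the coat protein that holds the *Abhd5* protein at rest, was higher by 0.84 (SE 0.11), *Cidec* by 0.87 (SE 0.11) and *Plin5* by 0.88 (SE 0.15). Among 6 other glyceride lipases 5 were higher, with *Ces1d* at 1.02 (SE 0.18), *Pnpla3* at 0.93 (SE 0.18) and *Abhd6*, a second monoglyceride lipase, at 0.49 (SE 0.09). The lysosomal lipase *Lipa* was the exception and fell by 0.51 (SE 0.12, limma adjusted p = 0.00395). Both listed genes of glycerol handling were higher, the glycerol channel *Aqp7* by 0.91 (SE 0.09) and the dehydrogenase *Gpd1* by 0.84 (SE 0.09). Of 8 transcription factors 3 were higher, *Clock* by 0.29 (SE 0.05), *Foxo1*, an activator of *Pnpla2*, by 0.42 (SE 0.11) and *Cebpa* by 0.35 (SE 0.09), and 1 was lower. *Arntl*, which encodes the CLOCK partner BMAL1, differed by -0.21 and did not pass (SE 0.15, limma adjusted p = 0.272).

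**Figure D5:**
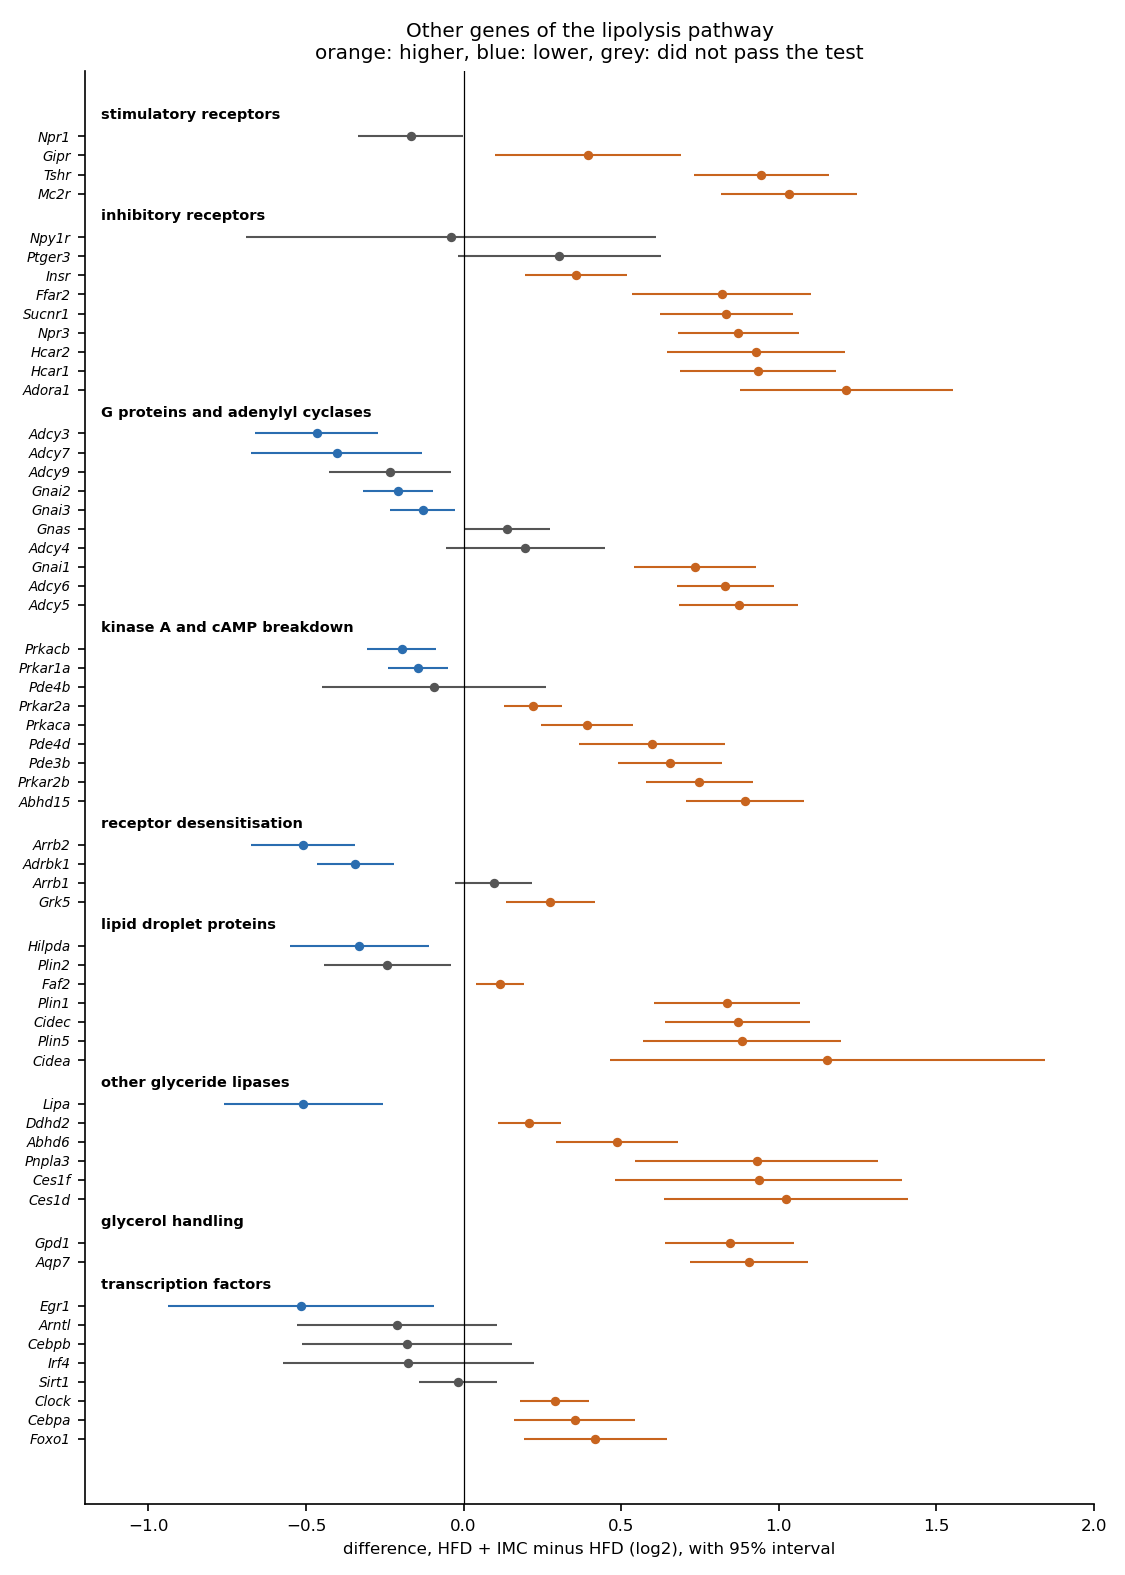
Differences between the groups (x axis, log2, HFD + IMC minus HFD) for the 59 listed pathway genes (y axis, grouped by role), as points with 95% intervals, in orange where higher, in blue where lower and in grey where the test was not passed. The 9 inhibitory receptors hold 7 orange and no blue point, while the G proteins and cyclases are divided between 3 orange and 4 blue.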

How the data were processed

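The authors trimmed reads with Trim Galore, aligned them to mm10 with STAR, counted them per gene, removed genes with low counts, scaled libraries by the upper quartile and calculated log2 CPM with edgeR. The deposited table holds log2 CPM of 12787 genes in 11 mice. The authors' own fold change, mean log2 CPM, likelihood ratio score, p-value and FDR in it were not used.

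Groups, taken from the sample labels, were compared with limma 3.58.1 in R 4.3.3 (trend, two-sided, adjusted p under 0.05 over all genes, no covariate or filter), on the values as deposited and after subtraction of the mean of the 7 adipocyte markers in each mouse. Where a comparison rested on 1 value per mouse, an exact permutation test (two-sided) was run over all 462 divisions of the mice, for which the smallest p is 0.00216. Whole reads recovered from the deposited values gave the depth and served in alternatives. Fits were tested on simulated data.

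The 7 genes, gene lists, motifs and tests were chosen with earlier results of these data known. Named are the 7 genes, the 3 pathway genes with the smallest p in each role, the 3 genes most like each of the 7. Marker genes are named where a value rests on them. *Adora1*, *Lipa*, *Arntl*, *Acta1*, *Myh2*, *Cidea*, *Ucp1* and *Lamb3* were named after their values were seen. Alternatives covered scaling, the added constant, a filter, voom on recovered reads, the reference genes and each mouse left out. The marker list without each marker and the exact test of relative values were added after the data were seen. Exon lengths and overlaps came from GENCODE vM21 and promoters from RefSeq. A gene of the pathway list is not reported here.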

Additional observations from a re-analysis of the deposited data

Results flagged for a closer look

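Over 90 tests of whether the highest or lowest mouse of a group stood apart (Dixon's criterion at 95%), 8 were flagged, and chance flags about 1 in 20.

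HFD mouse 5 accounted for 4 of them. Relative to the adipocyte markers it had the lowest *Pnpla2* of its group, 1.14 beside 1.37 to 1.42, and the lowest *Mgll*, 1.33 beside 1.63 to 1.72. Its log2 ratio of *Lipe* to *Pnpla2* was the highest at -0.0243, beside -0.36 to -0.29, and its log2 ratio of *Mgll* to *Lipe* the lowest at 0.21, beside 0.51 to 0.62. The 4 values share the *Lipe* or the marker level of that mouse, which were the highest of the HFD group. In the same ratio of *Mgll* to *Lipe*, IMC mouse 4 was the highest of its group at 0.39, beside 0.17 to 0.24.

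Among the pathway genes, IMC mouse 1 had the highest value of its group for 3 receptors that were already higher with IMC. *Mc2r* was at 5.19 log2 CPM beside 4.59 to 4.77, *Npr3* at 10.53 beside 10.18 to 10.31, and *Sucnr1* at 6.05 beside 5.73 to 5.84.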

How the results depend on the processing

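The count of 6 lipolysis genes higher and 0 lower between the groups was the same in all 18 alternatives run. Of 733 log2 differences computed under alternatives for the named genes, 699 kept their direction and their side of the threshold, 15 passed it in the alternative alone, 13 changed sign, and 6 no longer passed, all of *Gipr* with a mouse left out. The sign changes were all in values relative to the markers that had not passed. *Adrb1* was not called in any alternative between the groups (limma adjusted p 0.0861 to 0.408) and was left out by the 1 CPM filter. Total-count scaling called 2203 genes higher and 3261 lower.

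The values relative to the markers moved more. With a mouse left out, 1 to 4 of the 7 genes were called lower, the difference of *Lipe* was -0.0162 to 0.00968 and that of *Adrb3* -0.23 to 0.12. With *Adipoq* as the only reference, 4 of the 7 genes were called lower, *G0s2* was at -0.17 and 8 of all genes were called higher. With *Plin1* and *Cidec* added, *Lipe* was at 0.00992. With the marker list lacking *Adipoq*, *Acvr1c* or *Plin4*, *Lipe* was at 0.0458, 0.0421 or 0.0249, and lacking *Adipoq* 58 of all genes were called higher. Without *Adig*, *Fabp4* or *Pparg*, 3 of the 7 genes were called lower. The cause was not tested. The ratio of *Pnpla2* to *G0s2* lay between -0.46 and -0.27 with a mouse left out, with exact p from 0.00952 to 0.0810. The summed endothelial level differed by 0.28 (exact p = 0.0390) and by 0.23 to 0.35 with a mouse left out, with p up to 0.0810. No paired analysis was possible because the labels give the groups no shared replicate numbers. Counting error was 0.23 to 0.27 log2 for *Adrb1* and 0.00777 to 0.0403 for the other 6 genes.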
